A study of Homo sapiens with 4 samples.

Results

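The histone cluster genes encode the canonical histones and lie in 4 groups of the genome, HIST1 to HIST4. They were taken as every gene of the deposited tables whose symbol begins with HIST1H, HIST2H, HIST3H or HIST4H, which gave 65 of 22187 genes. Of these, 6 are linker histone (H1) genes, 18 are H2A, 19 are H2B, 12 are H3 and 10 are H4 genes, with 7 pseudogenes among them. HIST1 on chromosome 6 holds 50 of them, HIST2 on chromosome 1 holds 12, HIST3 on chromosome 1 holds 2 and HIST4 on chromosome 12 holds 1.

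RNA was sequenced from KMS18 and KMS28BM, 2 human multiple myeloma cell lines with the t(4;14) translocation, which the labels give as plasma cells of bone marrow (K18 and K28BM in the sample names). Each line was sequenced once with a control construct named Luc and once after PKCα, the kinase that PRKCA encodes, had been stably knocked down. Every library carries t(4;14), and the labels used here do not give the knockdown sequence, the number of clones or the number of cultures pooled. Within a line a difference therefore has no replicate, and the 2 lines are the only replication.

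A nucleosome wraps DNA around an octamer built from H2A, H2B, H3 and H4, and linker histones bind the DNA between nucleosomes. Dividing cells make most canonical histone mRNA in S phase. The message ends just after a conserved stem-loop, which SLBP binds and which takes the place of a poly(A) tail. Some of these genes also give a longer message that reads past the stem-loop and ends in a poly(A) tail, and such transcripts are known from differentiating and non-dividing cells. TruSeq RNA version 2, the kit named in the labels, selects RNA with a poly(A) tail and keeps no strand. The values below therefore describe the part of the histone mRNA that such a library can hold, not the total.

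The stem-loops are shown because they mark where the tail-less message ends. A 16-base stem-loop, with arms of 6 complementary bases around a loop of 4, was found in the listed GENCODE transcripts of 30 of 64 members. The search was for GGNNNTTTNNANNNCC on the transcript strand, with the loop in capitals below. 4 forms occurred.
form 1: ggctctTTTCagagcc
form 2: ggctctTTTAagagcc
form 3: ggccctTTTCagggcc
form 4: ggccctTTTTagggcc
Form 1 was carried by 18 genes (6 H2A, 8 H2B and 4 H3), among them HIST1H2AC and HIST2H2BE. Form 2 was carried by 3 H2B genes (HIST1H2BC, HIST1H2BD and HIST1H2BF) and by HIST1H3G. Form 3 belonged to 5 H4 genes, including HIST1H4H, and form 4 to HIST1H4I, HIST2H4A and HIST2H4B. Every H4 gene with a stem-loop had the ggccct arm, and every H2A, H2B and H3 gene with one had the ggctct arm. In 21 genes a listed transcript ran at least 200 bases past the stem-loop, and in 14 of these a poly(A) signal (AATAAA or ATTAAA) lay in the last 60 bases. In 9 genes it ended sooner, and 34 genes had no match, 32 of them with no listed transcript of 1000 bases or more.

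The 150 bases upstream of the start are shown for 4 members that were higher with the knockdown and for HIST1H2BJ, which lies back to back with HIST1H2AG. They are RefSeq sequences on GRCh38.p14, 5′ to 3′ on the gene's strand. Capitals mark the CCAAT box, the TATAAA box and the octamer ATTTGCAT, or their reverse complements, so both strands were searched. Capitals run together where 2 matches overlap.
HIST1H2AG (chr6:27132893-27133042, plus strand): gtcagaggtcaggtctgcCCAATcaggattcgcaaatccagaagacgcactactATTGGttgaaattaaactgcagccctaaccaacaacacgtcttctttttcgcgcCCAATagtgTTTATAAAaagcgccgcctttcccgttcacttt
HIST1H2BJ (chr6:27132796-27132945, minus strand): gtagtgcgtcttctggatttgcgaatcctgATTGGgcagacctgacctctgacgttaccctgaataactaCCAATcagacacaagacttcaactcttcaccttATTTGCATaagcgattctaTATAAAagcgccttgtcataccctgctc
HIST1H2AC (chr6:26124022-26124171, plus strand): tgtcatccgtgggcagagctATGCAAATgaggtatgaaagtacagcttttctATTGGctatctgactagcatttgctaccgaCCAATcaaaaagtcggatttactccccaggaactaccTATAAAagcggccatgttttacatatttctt
HIST2H2BE (chr1:149886683-149886832, minus strand): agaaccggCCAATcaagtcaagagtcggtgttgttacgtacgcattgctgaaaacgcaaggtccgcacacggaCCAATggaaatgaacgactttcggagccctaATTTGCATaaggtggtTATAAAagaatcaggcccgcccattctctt
HIST2H4A (chr1:149832507-149832656, plus strand): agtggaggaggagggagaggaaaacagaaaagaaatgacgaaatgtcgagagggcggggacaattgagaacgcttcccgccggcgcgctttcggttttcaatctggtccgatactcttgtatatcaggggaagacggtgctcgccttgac
Of 65 members, 55 had such a sequence. CCAAT was present in all 5 H1, all 14 H2A, all 17 H2B and all 10 H3 genes, but in 1 of 9 H4 genes (HIST1H4I). The share over all 35116 RefSeq promoters of the same length was 23.5%. The octamer, which POU2F1 is known to bind in H2B promoters, occurred in 13 of 17 H2B genes and in 3 of 14 H2A genes, against 0.988% of all promoters. Windows of back-to-back genes overlap, and the 3 H2A matches are the same sites, read from the other strand, as those of the H2B neighbours. The members' windows thus held 13 separate octamer sites. TATAAA occurred in 28 of 55 members, against 6.71%. The windows of HIST2H4A and HIST2H4B were identical and held none of the 3 motifs.

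The libraries were of like depth, between 37940949 and 39507281 estimated counts. PRKCA fell in KMS18 from 7.46 to 1.47 FPKM, the count of fragments scaled to gene length and library size, and in KMS28BM from 10.86 to 2.43. Plasma cell markers were detected in every library, from CD38 at 4.99 FPKM in the KMS28BM control to JCHAIN at 6760 FPKM in the KMS28BM knockdown, but they moved with the knockdown too. By edgeR 5 of the 8 were lower (XBP1 by -0.90, MZB1 by -0.83, IRF4 by -0.73, TNFRSF17 by -0.68 and SDC1 by -0.65 on the log2 scale), CD38 was higher by 0.59, and the median was -0.66. Their summed level was 7560 and 8430 FPKM in the KMS18 and KMS28BM controls and 6520 and 7830 FPKM in the knockdowns, and their part in the results below was not tested. Among the 3 T cell markers, CD3E went from 7.32 to 20.95 FPKM with the knockdown of KMS18 and from 1.0 to 3.27 with that of KMS28BM, while CD3D and CD2 were at most 0.22 FPKM in any library and CD3D was listed at 0 in both KMS28BM libraries. The summed T cell level was 7.57 and 1.10 FPKM in the controls against 21.1 and 3.38 FPKM in the knockdowns, and its part in the results below was not tested. As in any bulk RNA, fewer cells making a transcript and less RNA per cell cannot be told apart.

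Together the histone cluster genes took a very small share of the RNA, and that share was larger in both knockdown libraries. Their summed counts were 3149 in the KMS18 control and 7933 in the KMS18 knockdown, or 0.0083% and 0.0209% of the library. In KMS28BM they were 5550 and 8181, or 0.0140% and 0.0209%. After TMM scaling, which corrects for library composition, the sums were 2.42-fold higher with the knockdown in KMS18 and 1.41-fold higher in KMS28BM. The 2 knockdown libraries thus held the same share, and the controls differed. A few genes carried most of it: the 5 with the most counts held between 52.4% and 65.4% of the members' counts in a library.

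The classes did not move alike. Summed H1 reads differed by 1.02-fold in KMS18 and 1.08-fold in KMS28BM. H2A was higher with the knockdown by 3.52-fold and 1.92-fold, H2B by 3.19-fold and 1.31-fold, and H4 by 2.61-fold and 1.63-fold, in KMS18 and KMS28BM in turn. H3 was 2.42-fold higher in KMS18 and 1.02-fold in KMS28BM. HIST1H3G held 458 of the 832 H3 counts in the KMS28BM control and 311 of the 892 in its knockdown. Over the tested H3 genes the median log2 ratio of scaled counts was 0.51 in KMS18 and 0.59 in KMS28BM. In each class the ratio of the sums was larger in KMS18, except in H1. Differences between classes and between lines were not tested, since these are sums of 1 library each.

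**Figure D1:**
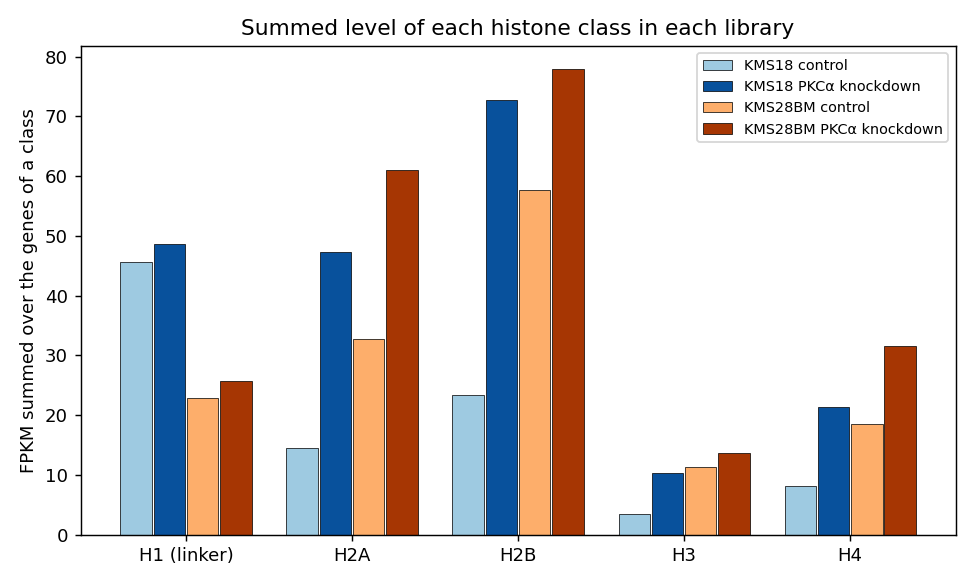
Summed FPKM of the genes of each histone class (bars, from 0) in the 4 libraries, with 1 library per bar and no error. H2A stood at 14.5 and 47.3 in KMS18 (control, then knockdown) and at 32.8 and 61.1 in KMS28BM, while H1 stood at 45.6 and 48.7, then 22.8 and 25.8.

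Over both lines, edgeR's quasi-likelihood test with cell line as a block was fitted to all 14870 genes that passed the filter on low counts, and p-values were adjusted over all of them by Benjamini-Hochberg. Of the 65 members 37 passed, 24 of them with both controls at the cutoff, and 28 were too low to test. Called higher at an adjusted p below 0.05 were 7 members, and none was lower. Among the 7 are HIST2H4A and HIST2H4B, near-identical copies that are not separate measurements. Over all genes tested 3.57% were called higher and 5.25% lower. All 7 were among the 24 that reached the cutoff in both controls. Without the cell line as a block edgeR called 0 members, with 2 higher at an unadjusted p below 0.05. The number was 1 without the filter, 3 of the 9 members to which DESeq2 gave an adjusted p, and 11 by limma on log2(FPKM + 1). For the 0 members called lower, none had an unadjusted p below 0.05 in that direction, and DESeq2 and limma also called none. The median log2 difference of the 37 was 0.91, against 0.02 over all genes tested. A higher scaled count in the knockdown of both lines was found for 29 of the 37, against 35.5% of all genes tested, and a lower one in both for 1, HIST2H2AC, against 32.8%.

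Within a line, a member passed a size rule with a log2(FPKM + 1) difference of 1 or more if either library reached 1 FPKM. This scale understates the change of low genes. A member can thus reach 1 FPKM through its knockdown library alone. At 1 FPKM were 14 members in the KMS18 control and 21 in its knockdown, and 25 and 30 in KMS28BM. The shares over all genes given here used the same rule. In KMS18, 11 of the 21 members at 1 FPKM were past it in the higher direction and 0 in the lower, against 0.818% and 0.647% of genes. In KMS28BM, 4 of 30 were higher and 0 lower, against 1.24% and 0.751%. The 4 were HIST1H2AG, HIST1H2AJ, HIST2H2AA4 and HIST2H4B. The last 2 have near-identical copies (HIST2H2AA3 and HIST2H4A), and with copies summed, chosen after seeing the data, neither pair passed (0.78 and 0.62) and 2 of 29 remained. HIST1H2AG was the member past the rule in both lines. Of the members past it, HIST1H2AI and HIST1H2AK in KMS18 reached 1 FPKM only in the knockdown. In KMS28BM the same held for HIST1H2AJ and HIST2H2AA4.

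**Figure D2:**
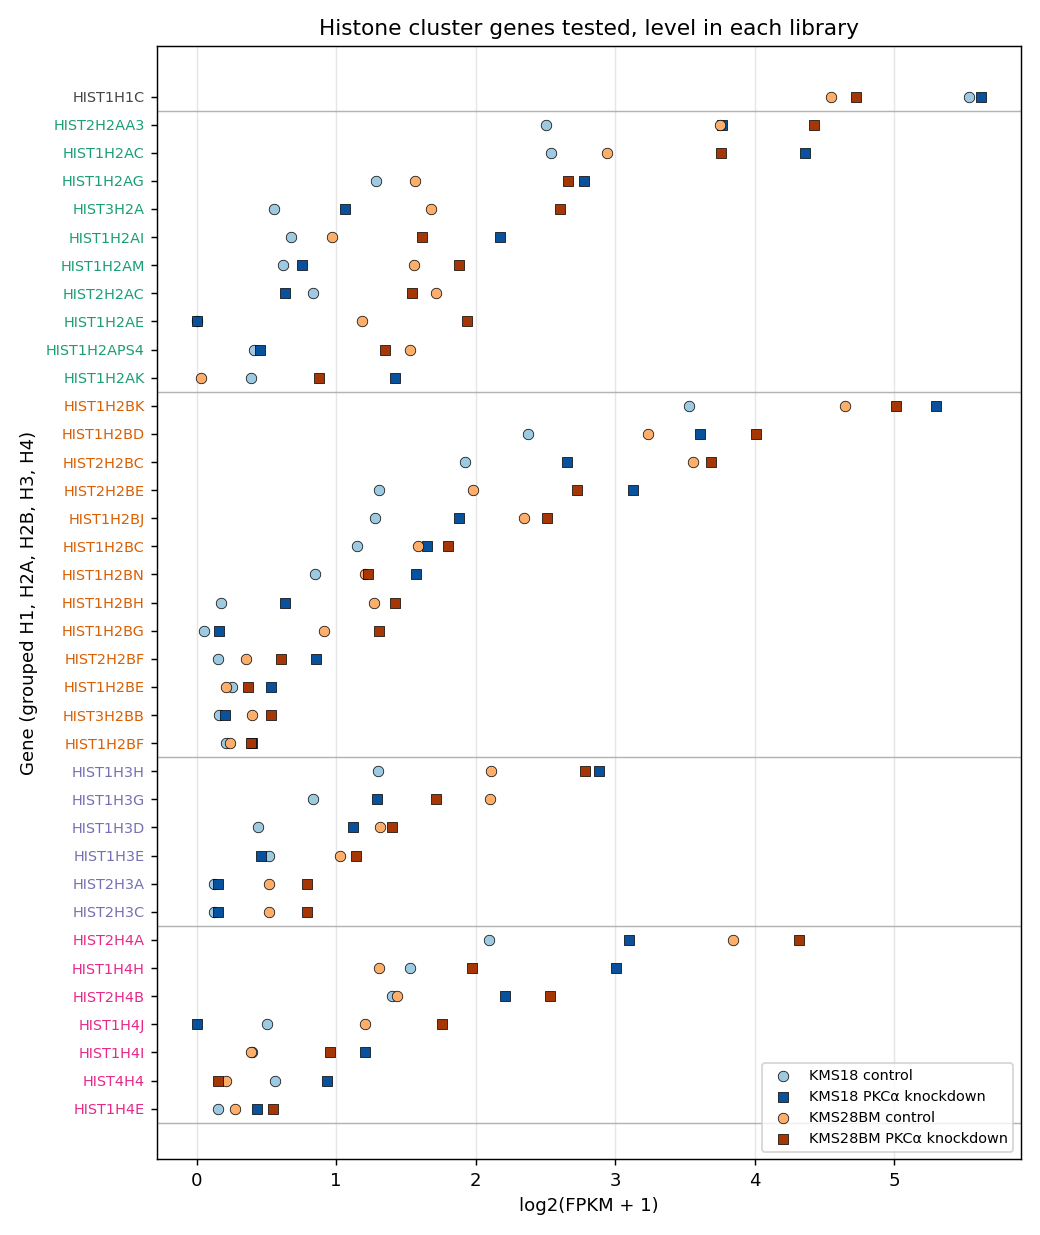
Level of each of the 37 members tested, as log2(FPKM + 1), in the 4 libraries (circles are controls, squares are knockdowns, blue KMS18, orange and brown KMS28BM), grouped by class and ordered by mean FPKM. HIST1H1C was the highest member and its knockdown points lie beside the controls. HIST1H2AC, HIST1H2AG, HIST1H2BD and HIST2H2BE have both knockdown points to the right of both controls. Members not called, such as HIST1H2BK and HIST1H3H, have them there too, and HIST2H4A, which was called, does not.

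Linker histones were represented by 1 gene. HIST1H1C, which encodes H1.2, was at 45.33 FPKM in the KMS18 control, 48.32 in the KMS18 knockdown, 22.43 in the KMS28BM control and 25.47 in the KMS28BM knockdown. The levels separated by line and not by construct. Its log2 difference over both lines was 0.07 (edgeR, SE 0.12 and adjusted p = 0.764), although it had the highest mean FPKM of the members. The other 5 linker genes, HIST1H1B, HIST1H1D, HIST1H1E, HIST1H1T and the pseudogene HIST1H1PS1, had at most 5 counts in any library.

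Among H2A genes, which encode the octamer partner of H2B, 10 of 18 were tested, 2 were called higher and the median difference was 1.11. HIST1H2AC stood at 4.83 FPKM in the KMS18 control and 19.53 in its knockdown, against 6.69 and 12.56 in KMS28BM. HIST1H2AG stood at 1.44 (control) and 5.87 FPKM (knockdown) in KMS18, and 1.96 and 5.34 in KMS28BM. For both genes the 2 knockdown libraries lay above the 2 controls without overlap, an order found in the same libraries that gave the calls. The order does not set called members apart. HIST2H2AA3, HIST1H2BK and HIST1H3H had it without being called, and HIST2H4A was called without it. Its share over all genes was not counted. HIST1H2AG had the smallest adjusted p of the members, with a log2 difference of 1.66 (edgeR, SE 0.21 and adjusted p = 0.00968), and HIST1H2AC differed by 1.39 (edgeR, SE 0.25 and adjusted p = 0.0222). HIST1H2AG was at a like level in both lines, with a log2 difference between lines of 0.04 (edgeR, SE 0.21 and adjusted p = 0.886). Its expected counts were not whole in any library (120.54 and 492.01 in KMS18, 170.22 and 460.82 in KMS28BM). Some of its reads may thus have been divided with other genes, which was not tested.

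HIST2H2AA3 was the H2A gene with the highest mean FPKM, at 4.68 and 12.58 FPKM for the KMS18 libraries, then 12.47 and 20.49 for KMS28BM. Its difference of 0.98 missed the threshold (edgeR, SE 0.24 and adjusted p = 0.0543). It shares 549 bases with HIST2H2AA4, which was listed only in the KMS28BM knockdown, at 1.68 FPKM, so reads of the copies cannot be assigned with certainty. With the copies summed, an analysis added after seeing the data, the difference was 1.04 and passed the edgeR test (adjusted p = 0.0390). HIST1H2AI (0.60 and 3.51 FPKM in KMS18, 0.96 and 2.06 in KMS28BM) and HIST1H2AK (0.31 and 1.68, then 0.02 and 0.84 FPKM) passed the size rule in KMS18 but not the edgeR test, with adjusted p of 0.0949 and 0.0811. HIST1H2AK overlaps exons of HIST1H2BN on the other strand, and strand was not kept. HIST1H2AJ passed it in KMS28BM, where it was listed at 0 in the control and at 1.56 FPKM in the knockdown.

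Of 19 H2B genes 13 were tested, 2 were called higher and the median difference was 0.86. HIST2H2BE was at 1.47 FPKM in the KMS18 control, 7.76 in its knockdown, 2.94 in the KMS28BM control and 5.61 in its knockdown. HIST1H2BD was at 4.19 (control) and 11.17 FPKM (knockdown) in KMS18, and 8.40 and 15.11 in KMS28BM. In both genes all knockdown values lay above all control values, again in the libraries that gave the calls, as they did in HIST1H2BK, which was not called. HIST2H2BE differed by 1.57 on the log2 scale (edgeR, SE 0.34 and adjusted p = 0.0359) and HIST1H2BD by 1.06 (edgeR, SE 0.23 and adjusted p = 0.0383).

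HIST1H2BK, the H2B gene with the highest mean level, showed the lines apart. It was at 10.54 and 38.47 FPKM in KMS18, a 3.65-fold ratio, and at 24.12 and 31.28 FPKM in KMS28BM, a 1.30-fold ratio. Its log2 difference over both lines was 1.03 (edgeR, SE 0.32 and adjusted p = 0.0902). HIST2H2BC, a pseudogene among the 3 H2B members with the highest mean level, was at 2.79 and 5.31 FPKM for the KMS18 libraries, then 10.80 and 11.86 for KMS28BM, with a difference of 0.44 (edgeR, SE 0.29 and adjusted p = 0.403).

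The 12 H3 genes had 6 tested and none called, with a median difference of 0.52. HIST1H3H, at 1.46 FPKM in the KMS18 control, 6.38 in its knockdown, 3.31 in the KMS28BM control and 5.89 in its knockdown, came closest with a log2 difference of 1.38 (edgeR, SE 0.34 and adjusted p = 0.0536). HIST1H3D was at 0.36 (control) and 1.17 FPKM (knockdown) in KMS18, and 1.49 and 1.64 in KMS28BM, with a difference of 1.11 (edgeR, SE 0.60 and adjusted p = 0.293). Its identifiers were summed, and the longer overlaps exons of HIST1H2AD on the same strand, so its reads cannot be assigned with certainty. HIST1H3G went opposite ways in the 2 lines, at 0.78 and 1.45 FPKM for the KMS18 libraries, then 3.29 and 2.29 for KMS28BM. HIST2H3A and HIST2H3C have identical listed transcripts of 1656 bases and received equal counts in every library, so they give 1 measurement.

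The H4 genes had 7 of 10 tested and 3 called higher, with a median difference of 1.28. HIST1H4H was at 1.89 FPKM in the KMS18 control, 7.04 in its knockdown, 1.48 in the KMS28BM control and 2.92 in its knockdown. HIST2H4A was at 3.28 (control) and 7.56 FPKM (knockdown) in KMS18, and 13.37 and 18.96 in KMS28BM. HIST2H4B was at 1.64 and 3.62 FPKM for the KMS18 libraries, then 1.70 and 4.79 for KMS28BM. Each was higher with the knockdown in both lines, and HIST2H4A also differed widely by line. The log2 differences were 1.38 for HIST1H4H (edgeR, SE 0.29 and adjusted p = 0.0331), 0.86 for HIST2H4A (edgeR, SE 0.20 and adjusted p = 0.0472) and 1.33 for HIST2H4B (edgeR, SE 0.27 and adjusted p = 0.0326). HIST2H4A and HIST2H4B share 1547 transcript bases and overlap HIST2H3C and HIST2H3A on the other strand, so their counts are uncertain one by one. Summed, the pair stood at 4.92 FPKM in the KMS18 control, 11.18 in its knockdown, 15.07 in the KMS28BM control and 23.75 in its knockdown, with a difference of 0.92 (edgeR adjusted p = 0.0249). HIST1H4I, with the loop form of those 2 genes, went from 0.32 to 1.31 and from 0.31 to 0.94 FPKM, a difference of 1.77 that missed the threshold (edgeR, SE 0.44 and adjusted p = 0.0561).

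**Figure D3:**
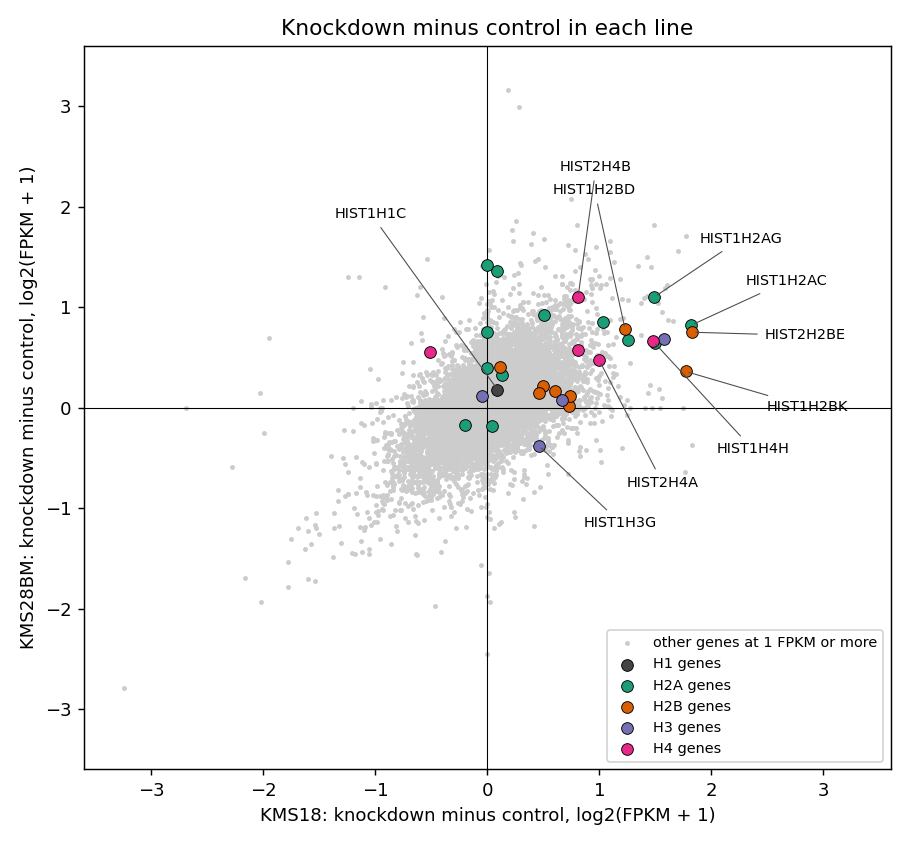
Knockdown minus control as log2(FPKM + 1) in KMS18 (x axis) and KMS28BM (y axis) for the 32 members that reached 1 FPKM in a library, coloured by class, over 12566 other genes in grey. Most members lie to the right of 0 and above 0, HIST1H2AG at 1.49 and 1.10 and HIST2H2BE at 1.83 and 0.75, whereas HIST1H3G lies at 0.46 and -0.38.

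Some properties were compared that the choice of genes did not use. All 21 genes with a listed transcript at least 200 bases past the stem-loop passed the low-count filter, 5 were called higher and their median difference was 1.0. Of the 9 genes with a shorter reach 6 were tested and 1, HIST1H2BD, was called, with a median of 1.02. HIST1H2BD and HIST1H2BC of this group also have a listed transcript without the stem-loop, of 789 and 659 bases, that ends in a poly(A) signal. Their deposited lengths were between 733 and 755 bases and between 630 and 640 bases, nearer to those transcripts than to the 496-base and 571-base ones with the stem-loop. Among the 35 others, including the gene without a listed transcript, 10 were tested and 1, HIST1H2AG, was called, with a median of 0.28. The long and short groups had like medians, but the grouping does not separate messages with a poly(A) tail from those without one. For HIST1H2AG the listed transcript of 2250 bases held no match, but a poly(A) signal lay in its last 60 bases. The longest listed transcripts of HIST1H2BJ and HIST1H3E, also in this group and not called, had such a signal too. For HIST1H2BK the GENCODE model is 381 bases and the deposited length 1203 bases, so the annotation used by the authors reached farther.

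**Figure D4:**
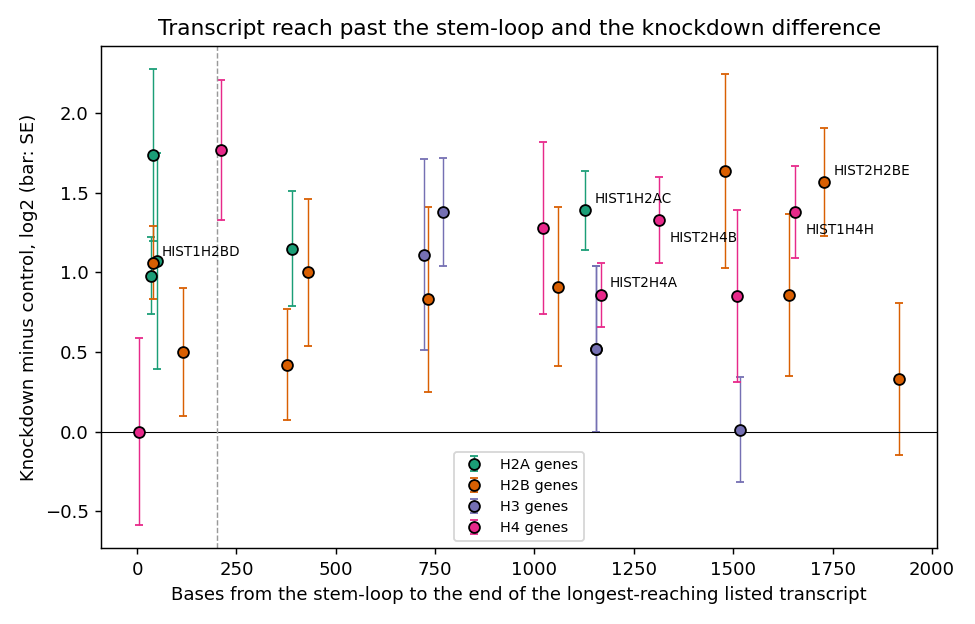
Log2 difference over both lines (points, with SE bars from edgeR) of the 27 tested members with a stem-loop, against the bases from the stem-loop to the end of the farthest-reaching listed transcript, with the dashed line at 200 bases. Called genes are named. Right of the line they run from 1128 bases (HIST1H2AC) to 1729 bases (HIST2H2BE), and HIST1H2BD, the only one left of it, at 39 bases, also has a listed transcript without the stem-loop.

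By position, the 31 HIST1 genes from HIST1H4B to HIST1H3PS1 summed 1.83-fold higher with the knockdown in KMS18 and 1.28-fold in KMS28BM. The 19 from HIST1H2BJ to HIST1H2BO summed 3.36-fold and 1.43-fold higher. HIST1H1C, with its large count, is in the first stretch. HIST2 as a whole was 2.97-fold and 1.53-fold higher. Members called higher came from both chromosomes, 4 from HIST1 and 3 from HIST2, the latter with the near-identical copies HIST2H4A and HIST2H4B. On chromosome 6 of GRCh38, HIST1H2AC spans 26124145 to 26139116 (plus strand), HIST1H2BD spans 26158146 to 26171349 (plus strand), HIST1H4H spans 26277609 to 26285638 (minus strand) and HIST1H2AG spans 27133042 to 27135291 (plus strand). On chromosome 1, HIST2H4A spans 149832659 to 149839767 (plus strand), HIST2H4B spans 149854045 to 149861210 (minus strand) and HIST2H2BE spans 149884459 to 149886652 (minus strand). All 7 are annotated as protein coding.

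Many H2A and H2B genes stand back to back. Of 15 such pairs with starts within 1000 bases, 13 joined an H2A with an H2B gene and 6 had both genes tested. HIST1H2AG was called higher, whereas HIST1H2BJ, 292 bases away, was at 1.43 (control) and 2.69 FPKM (knockdown) in KMS18, and 4.09 and 4.71 in KMS28BM, with a log2 difference of 0.19 (edgeR, SE 0.34 and adjusted p = 0.775). HIST1H2AC was called, and HIST1H2BC, 219 bases away, differed by 0.50 (edgeR, SE 0.40 and adjusted p = 0.490). HIST2H2BE was called, and HIST2H2AC, 323 bases away, was at 0.78 and 0.55 FPKM for the KMS18 libraries, then 2.29 and 1.92 for KMS28BM, with a difference of -0.42 (edgeR, SE 0.51 and adjusted p = 0.665). The difference between the genes of a pair was not tested. The windows of HIST1H2BJ and HIST2H2BE each held an octamer that was not in the window of their partner, and HIST1H2BC and HIST1H2AC share 1 octamer site. In the other 3 pairs no gene was called. HIST1H2BG and HIST1H2AE differed by 0.91 and 1.07 (SE 0.50 and 0.68). HIST1H3D and HIST1H2BF differed by 1.11 and 0.83 (SE 0.60 and 0.58), and HIST3H2A and HIST3H2BB by 1.15 and 0.33 (SE 0.36 and 0.48). HIST1H2AE had 0 counts in both KMS18 libraries, so its value rests on KMS28BM, and HIST1H2BG had 2 and 7 counts in KMS18. For HIST1H3D the log2 ratio of scaled counts was 2.55 in KMS18 and 0.15 in KMS28BM. HIST1H3D is in such a pair only through the longer of its identifiers, which overlaps exons of HIST1H2AD.

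**Figure D5:**
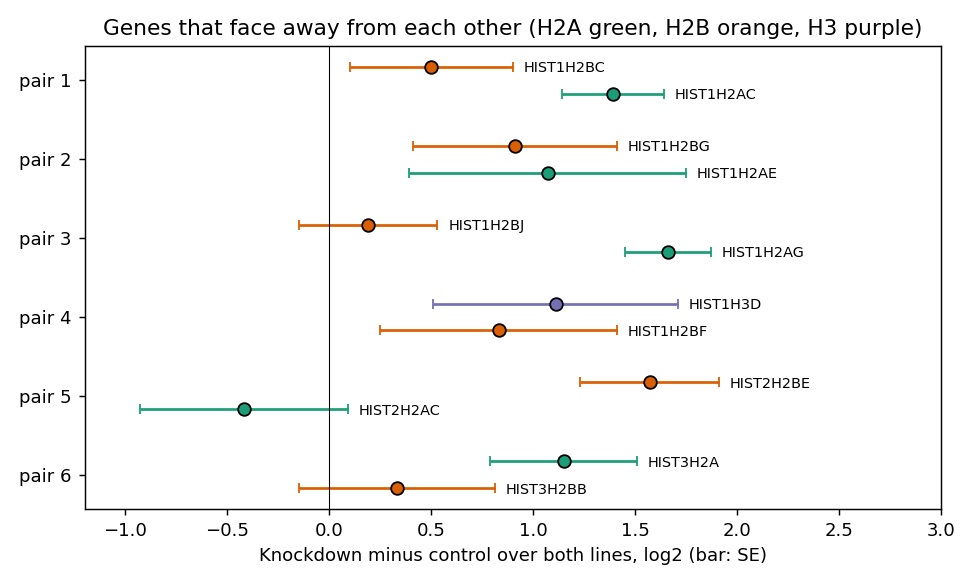
Log2 difference over both lines with SE bars for the 6 back-to-back pairs with both genes tested, H2A in green, H2B in orange and H3 in purple. In pairs 1, 3 and 5 the called gene (HIST1H2AC, HIST1H2AG, HIST2H2BE) lies at 1.39, 1.66 and 1.57 and its partner at 0.50, 0.19 and -0.42. In pairs 2 and 4 the genes lie between 0.83 and 1.11 with SE between 0.50 and 0.68, and none was called. The value of HIST1H2AE rests on KMS28BM, since it had 0 counts in KMS18.

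The lines also differed from each other. The model takes the line difference as the same under both constructs, so whether it depends on the construct was not tested. In the same edgeR fit 16 of 37 members were higher in KMS28BM and 3 were lower, against 30.6% and 32.3% of all genes tested. The 16 include both HIST2H3A and HIST2H3C, which received equal counts. With near-identical copies summed, added after seeing the data, 15 of 35 were higher and 3 lower. HIST1H2AE had 0 counts in both KMS18 libraries and 23 and 51 in KMS28BM, at least 22.5-fold higher against a floor of 3 counts over the line. HIST1H2BG had 2 and 7 counts in KMS18 and 51.3 and 86 in KMS28BM, a difference between lines of 3.82 on the log2 scale (edgeR, SE 0.54 and adjusted p = 0.000833). HIST3H2A was higher by 2.13 (edgeR, SE 0.36 and adjusted p = 0.00193) and HIST2H4A by 1.56 (edgeR, SE 0.20 and adjusted p = 0.000568). Lower in KMS28BM were HIST1H1C by -1.06 (edgeR, SE 0.12 and adjusted p = 0.000289), HIST1H4H by -1.10 (edgeR, SE 0.28 and adjusted p = 0.0127) and HIST4H4 by -2.29 (edgeR, SE 0.55 and adjusted p = 0.00974). HIST1H4H thus was higher with the knockdown and lower in KMS28BM, and HIST2H4A was higher in both comparisons.

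Over all genes tested edgeR called 3.57% higher and 5.25% lower, the shares to set beside the lists that follow. A list of 7 members known to give polyadenylated mRNA had 3 called higher by edgeR (HIST1H2AC, HIST1H2BD and HIST2H2BE) and a median difference of 1.03. Not called were HIST1H1C at 0.07, HIST1H2BC at 0.50, HIST4H4 at 0.85 and HIST1H2BK at 1.03. The replacement histone list held 12 genes. Among them, H2AFZ and H3F3A are made outside S phase too, from mRNA that ends in a poly(A) tail. Of the 12 genes 10 were tested, none was called by edgeR in either direction and the median was -0.08. At the shares over all genes, few or no calls would come from 10 genes. H3F3A, the highest of them, was at 574 FPKM in the KMS18 control, 526 in its knockdown, 686 in the KMS28BM control and 620 in its knockdown. Of 23 tested genes for making and processing histone mRNA, 0 were called higher and 3 lower: NCBP2, a cap-binding subunit, at -0.73 (edgeR adjusted p = 0.0102), POU2F1, an octamer-binding factor, at -0.63 (adjusted p = 0.0176) and CCNE2, a cyclin E, at -0.92 (adjusted p = 0.0358). SLBP went from 55.27 to 40.22 and from 70.26 to 63.19 FPKM, a difference of -0.40 (edgeR, SE 0.11 and adjusted p = 0.0667). The 17 histone chaperone genes had none called in either direction, again a list too short to tell from those shares, and a median of -0.20. Of 29 S phase genes 0 were called higher and 5 lower (CDC6, FEN1, MCM3, POLA1 and CCNE2), with a median of -0.28 over both lines, -0.42 in KMS18 and -0.18 in KMS28BM. CDC6, which loads the replicative helicase, went from 34.74 to 14.84 FPKM and from 45.18 to 24.55 FPKM, a difference of -0.92 (edgeR adjusted p = 0.00926). The histone cluster genes and the S phase list thus had medians of opposite sign. The deposited tables matched 0 of 6 symbols of other RNA without a poly(A) tail, so the part of carried-over tail-less RNA was not tested.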

How the data were processed

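Each library came with 1 table in which the authors give, per the file headers, a gene's expected count (not always whole), its FPKM and its length. STAR, Bowtie2, HISAT, GRCh37 and hg19 stand in the submitters' processing notes without roles, and no source used here names the program that counted. Positions, transcripts and overlaps are from GENCODE 29 on GRCh38, and promoters from RefSeq GRCh38.p14, matched by name. No coordinates were converted.

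Identifiers with 1 symbol had their expected counts and the authors' FPKM summed (23844 identifiers, 22187 genes), and an unlisted gene was 0. Counts rounded to whole numbers went into edgeR 4.0.16 (R 4.3.3), with TMM scaling and a filter at a minimum count of 10, which asks for 0.260 CPM in 2 libraries. A member may thus pass through its knockdown libraries alone, as 2 did. Cell line and construct were in the model. Cell line is the block because each line gave both constructs, and this left 1 residual degree of freedom, moderated to a prior of 5.85. A p-value therefore reflects how alike 2 lines moved only in part, since the spread was taken largely from all genes tested. Nothing shows whether libraries are separate cultures. DESeq2 1.42.0, limma 3.58.1 on log2(FPKM + 1), other filters and scalings, identifiers kept apart and a fit without the block were alternatives. Summing near-identical copies was added after seeing the data. The edgeR step was tested on simulated data. Poisson intervals (95%) and the floor of 3 counts cover counting error only.

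The genes named are members past a test or the size rule, the 3 per class with the highest mean FPKM, and members of lists past the test. Others named for copies, pairs, roles or differences between lines were chosen after their values were seen. The members and lists were chosen with earlier results of these data known.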

Additional observations from a re-analysis of the deposited data

Results flagged for a closer look

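HIST1H3G, an H3 gene on chromosome 6 whose listed transcript reads 1518 bases past its stem-loop, moved in opposite directions in the 2 lines, with counting intervals on either side of 0. Its counts were 90.9 in the KMS18 control and 162 in the knockdown, a log2 ratio of TMM-scaled counts of 0.77 (95% Poisson interval 0.39 to 1.16). In KMS28BM they were 458 and 311, a log2 ratio of -0.62 (-0.84 to -0.41). Each line gave 1 library per construct, so the difference between lines was not tested. Its deposited length was between 2981 and 3562 bases, longer than the 2411 bases of the GENCODE model.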

How the results depend on the processing

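The number of members called higher with the knockdown was 7 by edgeR. It was 1 without a filter on low counts (65 members tested), 1 with identifiers kept apart, 3 by DESeq2 among the 9 members it gave an adjusted p, and 11 by limma on log2(FPKM + 1). Without the replicate block, that is without pairing by cell line, it was 0, with 2 members higher at an unadjusted p below 0.05. Median of ratios scaling kept the number at 7, and 5 CPM in 2 libraries gave 5 of 11 tested. Summed copies also gave 7, but not the same 7. HIST2H4A and HIST2H4B became 1 call, and HIST2H2AA3 with its copy was added. No alternative called a member lower. The median log2 difference ran from 0.67 without KMS18 to 1.18 without KMS28BM, each then resting on 1 line with no test. By the other alternatives it lay between 0.56 (limma, on another scale) and 1.06 (5 CPM). Between lines, a filter at 5 CPM gave 4 higher and 1 lower, and DESeq2 gave 8 higher and 1 lower, against 16 and 3. In KMS28BM the size rule gave 7 higher with a pseudocount of 0.1 and 2 on TMM-scaled CPM or with copies summed, against 4. The causes were not tested, apart from the fewer genes tested at 5 CPM. HIST1H2AG passed under every edgeR, DESeq2 and limma alternative except the one without the block. Most members have few counts, which limits what could be called.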

Other observations

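The deposited gene length, which follows the mix of transcripts assigned to a gene, differed between control and knockdown for several members. HIST1H2BJ had 892 and 725 bases in KMS18 and 771 and 663 bases in KMS28BM, so its FPKM differed more than its counts (46 and 69, then 116 and 113). HIST4H4 had 676 bases in the KMS28BM control and 1918 in the knockdown, on 4 and 8 counts. HIST1H2BN went from 2545 to 1996 bases in KMS18 and from 1684 to 1667 bases in KMS28BM.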
